A study of Rattus norvegicus with 12 samples.

Results

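The MAPK feedback regulators described here are the 10 genes Dusp1, Dusp4, Dusp5, Dusp6, Spry1, Spry2, Spry4, Spred1, Spred2 and Etv5, found by their symbols among the 33294 rows of the count table. All 10 had enough counts to be tested, among 18438 genes tested in all. The cells were PAC1, a smooth muscle line from rat pulmonary artery, and their RNA was sequenced as 4 groups of 3 poly(A)-selected libraries. Each group received 1 siRNA: the negative control siRNA C2 (labelled C2 and called control here), or an siRNA against RBPMS (RBPMS-KD), RBFOX2 (labelled FOX2-KD, called RBFOX2-KD here) or QKI (QKI-KD). All cells were grown in medium with foetal bovine serum and, per the labels, received 90 pmol of siRNA by reverse transfection, a repeat dose after 24 h and harvest 48 h after that. The study's methods give longer intervals. The 3 siRNA targets are RNA-binding proteins that regulate splicing, so the comparisons ask how transcripts of a signalling pathway stand after the loss of each. A single line and 1 siRNA per target were used. The study states that the cells of this experiment were grown for the more differentiated culture state (PAC1-D), which the labels do not give for each sample. It also reports that its PAC1-D cells were less differentiated here than in its other RNA-seq experiment.

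Growth factors bind receptor tyrosine kinases, which activate Ras and then the kinases RAF, MEK and ERK, ERK being a mitogen-activated protein kinase (MAPK). Active ERK induces the transcription of its own inhibitors, which closes a negative feedback loop. The dual-specificity phosphatases (Dusp genes) remove phosphates from MAPKs, Sprouty proteins (Spry genes) restrain signalling from receptors to RAF, and Spred proteins bring the Ras inhibitor neurofibromin to the membrane. Etv5 is an ETS transcription factor of the PEA3 group whose transcript is widely used as a readout of FGF and ERK signalling. In vascular smooth muscle, growth factor signalling through ERK is associated with a proliferative state and with lower contractile gene expression.

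The sense strands of the 4 siRNAs are shown because they define the groups. No bases are in capitals.
control C2: aagguccggcucccccaaaug
RBPMS: ggcggcaaagccgagaaggcgaaca
RBFOX2: gcaaugguucagccuuuua
QK: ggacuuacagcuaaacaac
The siRNA targets were lowered in their own groups. Rbpms fell from 40.7 CPM (CPM being counts relative to library size after TMM scaling) in control to 7.21 CPM in RBPMS-KD. Rbfox2 went from 154 to 37.3 CPM in RBFOX2-KD, and Qk, which encodes QKI, from 233 to 26.6 CPM in QKI-KD. Rbpms was also lower after RBFOX2 knockdown (log2 fold change -0.81) and after QKI knockdown (-0.49), so Rbpms transcript was below control in all 3 knockdown groups. Qk was lower after RBFOX2 knockdown (174 CPM) and higher after RBPMS knockdown (265 CPM). Rbfox2 was lower after RBPMS and QKI knockdown (142 and 139 CPM).

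Promoter windows (the 250 bases before the transcript start, RefSeq, assembly GRCr8) are shown for the 3 regulators that moved by more than the study's fold limit in some knockdown (Dusp1, Dusp6, Etv5). The window of Dusp5 is also shown, the 1 regulator called higher after QKI knockdown with TMM scaling. Capitals mark matches to 3 motifs of serum and growth factor response, searched on both strands: the cAMP response element TGACGTCA, the CArG box bound by serum response factor, and the ETS motif CCGGAA.
Dusp1, chr10:17184603-17184852, plus strand: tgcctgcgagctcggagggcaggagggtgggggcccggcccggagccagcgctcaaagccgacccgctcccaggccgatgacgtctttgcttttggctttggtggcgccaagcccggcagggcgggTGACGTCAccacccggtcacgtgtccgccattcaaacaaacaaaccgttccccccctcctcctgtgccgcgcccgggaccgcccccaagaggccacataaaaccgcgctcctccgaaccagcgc
Dusp5, chr1:262543524-262543773, plus strand: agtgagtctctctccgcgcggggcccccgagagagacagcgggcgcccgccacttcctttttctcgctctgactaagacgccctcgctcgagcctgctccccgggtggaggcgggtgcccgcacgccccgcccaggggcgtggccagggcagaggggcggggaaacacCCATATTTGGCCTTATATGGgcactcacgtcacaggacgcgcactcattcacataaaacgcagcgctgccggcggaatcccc
Dusp6, chr7:35979354-35979603, plus strand: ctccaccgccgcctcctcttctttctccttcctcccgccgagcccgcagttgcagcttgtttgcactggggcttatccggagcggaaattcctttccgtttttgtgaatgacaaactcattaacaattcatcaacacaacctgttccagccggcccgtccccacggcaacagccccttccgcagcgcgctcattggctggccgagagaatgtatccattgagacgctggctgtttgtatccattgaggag
Etv5, chr11:92113013-92113262, plus strand: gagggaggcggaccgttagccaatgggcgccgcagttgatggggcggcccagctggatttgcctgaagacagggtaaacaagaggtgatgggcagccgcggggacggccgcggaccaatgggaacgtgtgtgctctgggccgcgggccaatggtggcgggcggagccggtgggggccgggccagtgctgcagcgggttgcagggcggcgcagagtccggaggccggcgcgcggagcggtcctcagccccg
The Dusp1 window held 1 cAMP response element, which begins 124 bases before the start, and the Dusp5 window held 2 CArG boxes that adjoin without overlapping, at 82 and 72 bases before it. The letters of the 3 motifs were not in the Dusp6 or Etv5 windows. Among 33469 windows of the same length, 1.59% held the cAMP response element, 1.5% a CArG box and 12.6% the ETS motif, which was also found in windows of Spry2 and Spry4. Windows were found for 9 of the 10 genes, Dusp4 being the exception. The motifs were chosen after the sequences had been seen, and a match is a description of the letters only.

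Libraries held 111 to 152 M counts, of which low values were more often even than odd (68.1% of values from 1 to 19, against 50.9% above 1000), so if a fragment often gave more than 1 count, fewer independent fragments stand behind each value than its count, which was not tested. The second RBPMS-KD library stood furthest from its group, with a chi-square per degree of freedom of 57.8 and 45.6 against the other two, where other pairs within groups reached at most 21.5. The summed level of 9 smooth muscle markers (Acta2, Tagln, Myl9, Cnn1, Mylk, Lmod1, Smtn, Myh11 and Myocd), all tested, lay between 2157 and 2226 CPM in control, 1092 and 1197 in RBPMS-KD, 856 and 955 in RBFOX2-KD and 1450 and 1536 in QKI-KD. Acta2, Tagln and Myl9 make up most of this sum, and its members did not all fall: 2 of 9 were higher and 7 lower after RBPMS knockdown, 2 and 6 after RBFOX2 knockdown, and 2 and 6 after QKI knockdown. Myh11 rose from a mean of 6.48 CPM in control to 8.23, 13.4 and 7.38 CPM, Myocd rose in RBPMS-KD and QKI-KD, and Tagln did not pass in QKI-KD. Sums over 5 endothelial markers reached at most 10.8 CPM in any library. Sums over 5 leukocyte markers were at most 0.931 CPM in control and between 4.07 and 4.48 in QKI-KD (Csf1r for the most part, with Ptprc at 2 counts in each library). Those over 4 epithelial markers were at most 0.712 CPM in control and between 5.58 and 7.38 in QKI-KD. Most of the latter was Cldn4 (mean 5.63 CPM), while Epcam and Cdh1 had means of 0.37 and 0.39 CPM there. In bulk RNA, fewer cells of a type and less RNA per cell cannot be told apart, and the part of these markers in the results below was not tested.

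The knockdowns moved the regulators in different directions. After RBPMS knockdown, 4 of the 10 were higher than in control and 5 were lower, against 30.4% higher and 29.0% lower among all genes tested. RBFOX2 knockdown left 5 higher and 3 lower, where the shares of all genes were 30.1% and 30.1%. After QKI knockdown, 1 was higher and 8 were lower, against 32.9% and 34.0% of all genes. "Higher" and "lower" here mean an adjusted p under 0.05 in edgeR's quasi-likelihood test with Benjamini-Hochberg adjustment over all genes. The 3 comparisons share the control libraries. With counts scaled by library totals alone the splits were 2 higher and 5 lower for RBPMS, 5 and 3 for RBFOX2, and 2 and 7 for QKI.

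Most changes were below 2-fold. The study's rule also asks for an absolute log2 fold change above 1. None of the 10 reached it after RBPMS knockdown, where 9.66% of all genes did. After RBFOX2 knockdown 1 of the 10 did (Dusp1, against 11.7% of all genes), and after QKI knockdown 2 did (Dusp6 and Etv5, against 17.5%). The median absolute log2 fold change of the regulators was 0.34, 0.21 and 0.43 after RBPMS, RBFOX2 and QKI knockdown, beside 0.33, 0.33 and 0.42 over all genes. Signed medians were -0.11, 0.04 and -0.34, where all genes had 0.01, 0.01 and 0.01. In each knockdown the 3 libraries lay apart from the 3 control libraries for 9 of the 10 genes, against 61.7%, 68.6% and 72.3% of all genes. The genes that overlapped with control were Etv5 for RBPMS, Spred1 for RBFOX2 and Spry4 for QKI. Replicates are numbered in the labels without a statement of separate cultures, while the study's methods describe at least 3 biological replicates per condition. The p-values measure the spread between these libraries, and an exact permutation test of 3 against 3 cannot go below p = 0.1.

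**Figure D1:**
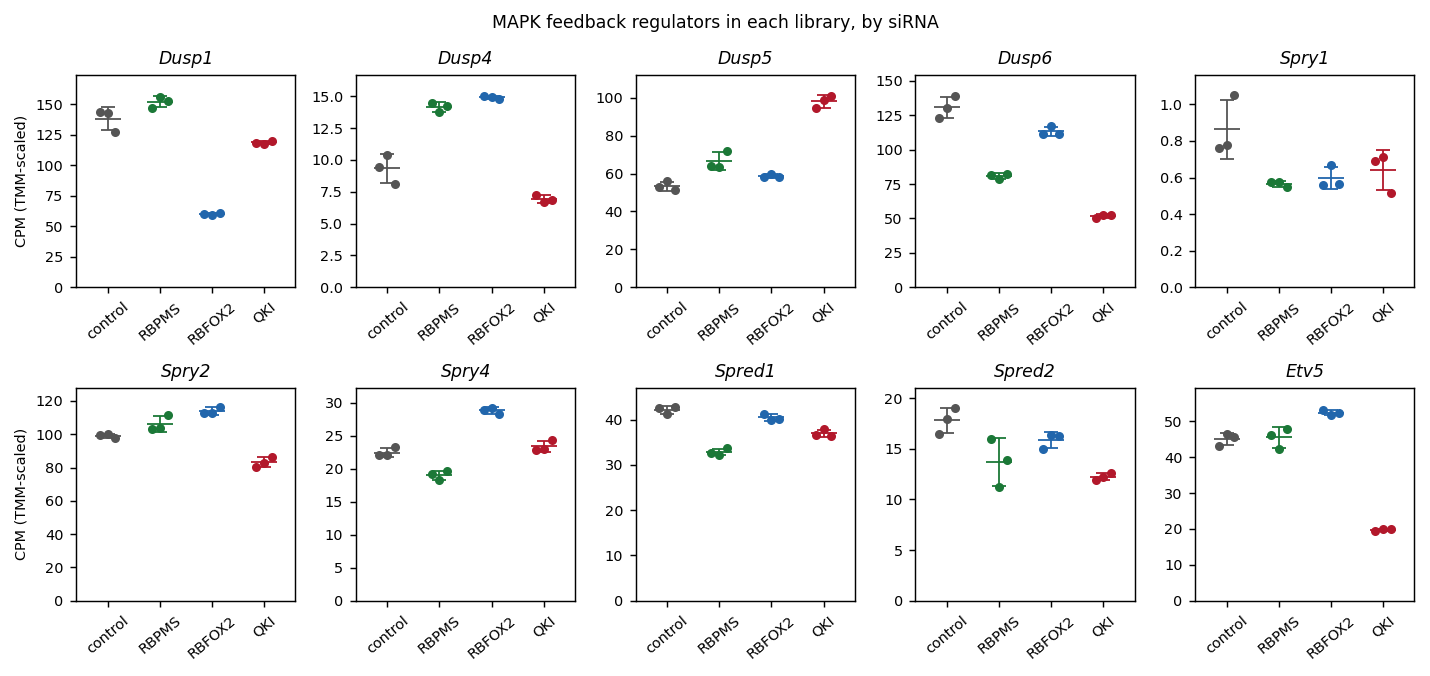
Level of each regulator in CPM of the TMM-scaled library (vertical axis, starting at 0) in the 12 libraries, by siRNA; points are libraries, the wide bar is the mean and the whiskers are the SD (n = 3). Dusp1 sits between 59.6 and 60.5 CPM in RBFOX2-KD, Etv5 between 19.5 and 20.05 CPM in QKI-KD, both below all other libraries, and Dusp5 between 94.4 and 101 CPM in QKI-KD, above all other libraries.

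Dusp1, a nuclear phosphatase of ERK, p38 and JNK that is induced rapidly by stress and growth factors, was lowest after RBFOX2 knockdown. It was at 144, 143 and 127 CPM in the control libraries and at 60.3, 59.6 and 60.5 CPM in RBFOX2-KD. The RBFOX2-KD libraries all lay far below the control libraries, a 2.30-fold fall (log2 fold change -1.20, SE 0.043, adjusted p = 2.18e-13). After QKI knockdown it was at 119, 118 and 120.2 CPM, below every control library (log2 fold change -0.22, SE 0.042, adjusted p = 1.91e-04). RBPMS knockdown gave 147, 156 and 153 CPM, all above control (0.14, adjusted p = 0.00886). The third control library was the low one, and without it the RBPMS difference was 0.08 with an adjusted p of 0.0680.

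Dusp4, another nuclear phosphatase of ERK and related kinases, was split by the knockdowns. Control libraries were at 9.46, 10.4 and 8.14 CPM. RBPMS-KD had 14.5, 13.7 and 14.2 CPM and RBFOX2-KD had 15.02, 14.9 and 14.8 CPM, so both sat above control without overlap. The rises were 1.51-fold (log2 fold change 0.60, SE 0.070, adjusted p = 1.05e-06) and 1.60-fold (0.68, SE 0.069, adjusted p = 2.06e-07). QKI-KD went the other way, with 7.28, 6.70 and 6.85 CPM, all below control (log2 fold change -0.43, SE 0.072, adjusted p = 5.52e-05).

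Dusp5, a nuclear phosphatase that acts on ERK and holds it in the nucleus, was the 1 regulator higher after QKI knockdown with TMM scaling. It was at 53.05, 55.9 and 51.2 CPM in control and at 94.4, 98.9 and 101 CPM in QKI-KD. The rise was 1.84-fold (log2 fold change 0.88, SE 0.048, adjusted p = 2.85e-11). RBPMS-KD libraries were at 64.1, 63.7 and 72.1 CPM, also above all of control (0.32, SE 0.048, adjusted p = 1.76e-05). RBFOX2-KD libraries were at 58.3, 59.7 and 58.2 CPM, a small rise of 0.14 on the log2 scale (adjusted p = 0.0192) that did not pass without the first or the third control library or the second RBFOX2-KD library (0.13, 0.11 and 0.11, with adjusted p of 0.0570, 0.0948 and 0.0927). Dusp1, Dusp4 and Dusp5, all nuclear, therefore had 3 different orders of the groups: Dusp1 was lowest in RBFOX2-KD, Dusp4 was lowest in QKI-KD and Dusp5 was highest in QKI-KD.

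Dusp6, the cytoplasmic phosphatase specific for ERK, fell in all 3 knockdowns. Control libraries were at 123, 130.4 and 139 CPM and QKI-KD libraries at 50.2, 52.8 and 52.5 CPM. This 2.52-fold fall (log2 fold change -1.33, SE 0.044, adjusted p = 3.24e-14) was larger in size than the other changes against control among the 10 genes. RBPMS-KD libraries were at 81.9, 78.4 and 82.7 CPM, 1.61-fold lower than control (log2 fold change -0.69, SE 0.043, adjusted p = 3.78e-10). In RBFOX2-KD they were at 112, 117 and 112 CPM, closest to control but still below each of its libraries (-0.20, SE 0.042, adjusted p = 4.83e-04). Dusp5 and Dusp6 act on the same kinase in different compartments. In all 3 knockdowns the nuclear one was higher and the cytoplasmic one lower, and both changed most after QKI knockdown. The rise of Dusp5 after RBFOX2 knockdown did not pass in some fits, as given above.

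Sprouty transcripts had group means within 0.45 to 0.60 of each other on the log2 scale, narrower than the 0.88 to 1.34 of the 4 Dusp genes. Spry2 ranged from 97.8 to 100.1 CPM in control, from 113 to 117 in RBFOX2-KD and from 80.2 to 86.5 in QKI-KD, with no overlap. It was thus higher after RBFOX2 knockdown (log2 fold change 0.20, SE 0.038, adjusted p = 2.05e-04) and lower after QKI knockdown (-0.25, SE 0.039, adjusted p = 1.82e-05). After RBPMS knockdown it lay between 103 and 112 CPM (0.10, adjusted p = 0.0341). That call was lost with RLE factors, with library totals, with no filter, in DESeq2 and in a fit on the 6 libraries compared. It was also lost in 4 of 6 fits with 1 library left out, down to 0.06 (adjusted p = 0.196) without the third RBPMS-KD library. Spry4 had 22.0 to 23.2 CPM in control. It was higher in RBFOX2-KD, at 28.3 to 29.2 CPM (0.36, SE 0.044, adjusted p = 1.52e-06), and lower in RBPMS-KD, at 18.2 to 19.6 CPM (-0.24, SE 0.045, adjusted p = 1.79e-04). In QKI-KD it spanned 22.9 to 24.3 CPM, which overlapped with control (0.06, 95% interval -0.03 to 0.15, adjusted p = 0.234). There it passed as higher when libraries were scaled by totals (0.15, adjusted p = 0.00730). It also did so in the authors' normalised signal tested with limma (0.16, adjusted p = 0.00461).

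Spry1 had few counts, 60 to 143 per library. Its control libraries were at 0.759, 0.779 and 1.05 CPM, and the highest value in any knockdown was 0.713 CPM, so all 9 knockdown libraries were below control. Log2 fold changes were -0.61 (SE 0.19, adjusted p = 0.0101) for RBPMS, -0.53 (SE 0.18, adjusted p = 0.0195) for RBFOX2 and -0.43 (SE 0.18, adjusted p = 0.0495) for QKI. The third control library held the highest value, and without it the 3 differences were -0.44, -0.37 and -0.27, with adjusted p of 0.0707, 0.124 and 0.254. The QKI call was also lost with DESeq2, RLE factors, library totals, no filter, a replicate block and a fit on the 6 libraries compared. Of 6 fits that left out 1 library, 3 lost it.

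Spred1 and Spred2 were lower rather than higher wherever they passed against control. Spred1 ranged from 41.2 to 42.7 CPM in control and from 32.2 to 33.7 in RBPMS-KD, a 1.28-fold fall (log2 fold change -0.36, SE 0.036, adjusted p = 1.78e-07). In QKI-KD it had 36.4 to 37.8 CPM (-0.19, SE 0.036, adjusted p = 1.68e-04), while the 39.98 to 41.3 CPM of RBFOX2-KD overlapped with control (-0.06, 95% interval -0.13 to 0.02, adjusted p = 0.176). Spred2 was at 16.5, 17.96 and 19.01 CPM in control and at 11.95, 12.3 and 12.6 CPM in QKI-KD, 1.45-fold lower (-0.54, SE 0.090, adjusted p = 4.55e-05). In RBPMS-KD its libraries were at 15.9, 11.2 and 13.9 CPM (-0.38, SE 0.090, adjusted p = 0.00136). The low value of 11.2 CPM belongs to the library that stood furthest from its group, and without that library the difference was -0.26 (adjusted p = 0.00228) and 9 of the 10 regulators still passed against control. RBFOX2-KD libraries, at 15.01, 16.4 and 16.2 CPM, were below control without overlap and did not pass (-0.17, 95% interval -0.36 to 0.02, adjusted p = 0.114). This difference did pass with no filter on low counts (-0.18, adjusted p = 0.0166) and in a fit on the 6 libraries compared (-0.16, adjusted p = 0.0153).

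Etv5 stood apart in QKI-KD. It was at 43.3, 46.4 and 45.7 CPM in control and at 19.5, 19.9 and 20.05 CPM in QKI-KD, a 2.28-fold fall (log2 fold change -1.19, SE 0.046, adjusted p = 3.56e-13). RBFOX2-KD libraries were at 53.3, 51.7 and 52.3 CPM, all above control (0.22, SE 0.045, adjusted p = 4.56e-04). RBPMS-KD libraries were at 46.3, 42.2 and 48.0 CPM and overlapped with control (0.01, 95% interval -0.08 to 0.11, adjusted p = 0.850). Its range over the 4 group means was 1.40 on the log2 scale, wider than the ranges of the other 9, and the median range over all genes tested was 0.75.

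**Figure D2:**
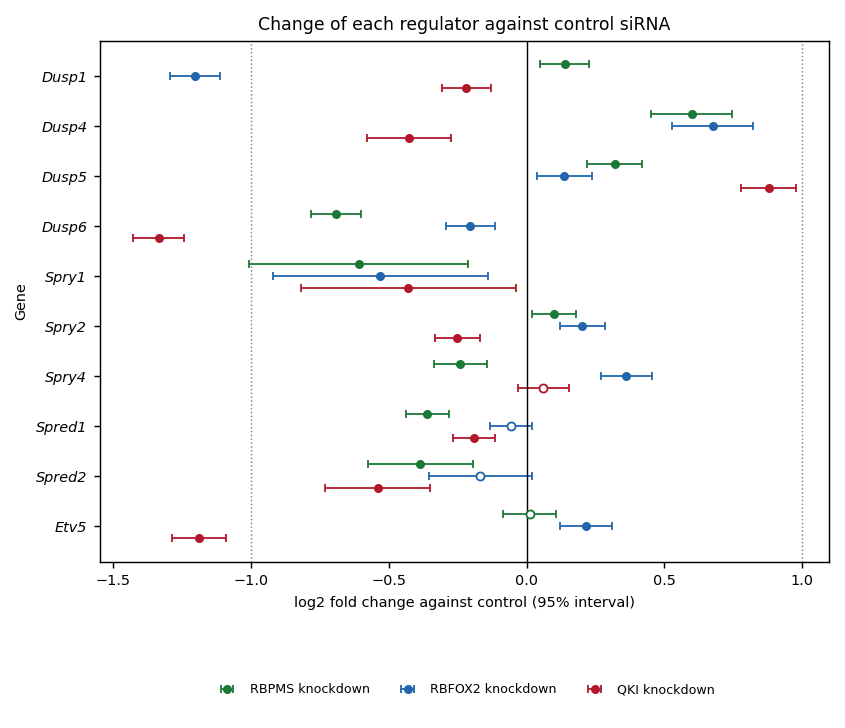
Log2 fold change of each regulator against control (horizontal axis) with its 95% interval, for the RBPMS, RBFOX2 and QKI knockdowns; open circles did not pass an adjusted p of 0.05 and dotted lines mark a change by a factor of 2. Only Dusp1 in RBFOX2-KD and Dusp6 and Etv5 in QKI-KD lie beyond a dotted line.

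Direct comparisons between knockdowns take the difference of 2 knockdown groups from the same fit over the 12 libraries, in which the control libraries enter the estimate of spread. RBPMS and RBFOX2 knockdown differed for 8 of the 10 regulators, against 56.7% of all genes in either direction. Dusp1 was 2.53-fold higher after RBPMS than after RBFOX2 knockdown (log2 difference 1.34, SE 0.043, adjusted p = 1.15e-13). Spry4 (-0.60, SE 0.044, adjusted p = 5.65e-09) and Dusp6 (-0.49, SE 0.043, adjusted p = 4.58e-08) were lower after RBPMS knockdown. Dusp4 was not shown to differ (-0.08, 95% interval -0.22 to 0.07, adjusted p = 0.357), nor was Spry1 (-0.08, interval -0.49 to 0.33). The weakest calls were those of Spred2 (-0.22, adjusted p = 0.0499), which was -0.09 (adjusted p = 0.269) without the second RBPMS-KD library and -0.34 (adjusted p = 0.00178) without the first, and of Spry2 (-0.10, adjusted p = 0.0307), lost in 5 of 6 fits with 1 library left out. In a fit on only the 6 libraries compared, neither passed (adjusted p = 0.104 for Spred2 and 0.0793 for Spry2). With library totals alone, Dusp4 passed (-0.18) and Dusp5 (0.18, adjusted p = 0.00354) did not (0.08), and Dusp5 did not pass in the normalised signal either (0.11, adjusted p = 0.0557).

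QKI knockdown differed from RBPMS knockdown for 8 of the 10 (61.0% of all genes) and from RBFOX2 knockdown for 9 of the 10 (68.5% of all genes). Etv5 was 2.29-fold higher after RBPMS than after QKI knockdown (log2 difference 1.20, SE 0.047, adjusted p = 5.83e-13) and 2.65-fold higher after RBFOX2 than after QKI knockdown (1.40, SE 0.046, adjusted p = 4.29e-14). Dusp4 was 2.03-fold and 2.15-fold higher (1.02 and 1.10, adjusted p = 1.44e-09 and 3.26e-10), and Dusp6 was 1.56-fold and 2.19-fold higher (0.64 and 1.13, adjusted p = 8.45e-10 and 3.05e-13). Dusp5 was lower after either than after QKI knockdown, by 0.56 and 0.74 on the log2 scale. For Dusp1 the signs were opposite: it was higher after RBPMS (0.36) and lower after RBFOX2 knockdown (-0.98) than after QKI knockdown. Spred2 did not pass between RBPMS and QKI knockdown (0.16, 95% interval -0.04 to 0.35, adjusted p = 0.155), and without the second RBPMS-KD library it did (0.28, adjusted p = 0.00116). Spry1 passed in neither comparison (-0.18 and -0.10). Spred1 was higher after RBFOX2 than after QKI knockdown (0.13, adjusted p = 0.00370), a call lost in the normalised signal (0.08, adjusted p = 0.0706).

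**Figure D3:**
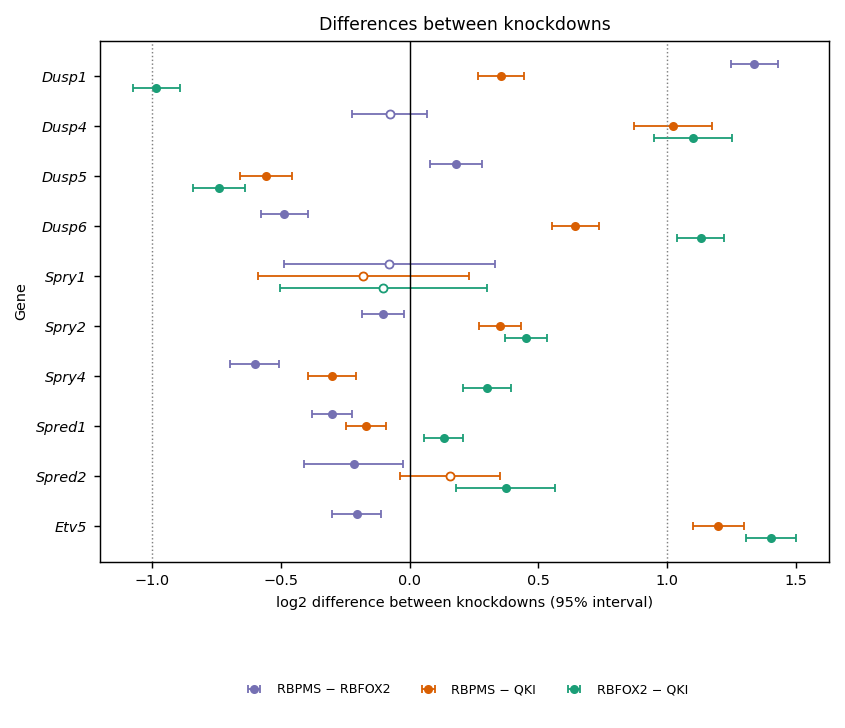
Log2 difference of each regulator between pairs of knockdowns (horizontal axis) with its 95% interval; a positive value means higher in the first of the pair, open circles did not pass and dotted lines mark a factor of 2. Dusp1 lies at 1.34 for RBPMS minus RBFOX2, and Dusp4, Dusp6 and Etv5 lie beyond 1 for RBFOX2 minus QKI.

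The group orders can be read with the neighbours that were not separated. For Etv5 the order was RBFOX2-KD, RBPMS-KD, control, QKI-KD, with RBPMS-KD and control not separated. Dusp4 had the same order, with RBFOX2-KD and RBPMS-KD not separated. For Dusp6 the order was control, RBFOX2-KD, RBPMS-KD, QKI-KD, and for Dusp1 it was RBPMS-KD, control, QKI-KD, RBFOX2-KD, and each neighbouring pair of groups passed the test, although RBPMS-KD and control were not separated for Dusp1 with library totals alone, in the normalised signal (0.10, adjusted p = 0.0770) or without the third control library. The genes most like Etv5 over the 12 libraries, among 10706 with a mean of at least 5 CPM, were Hook3, Ranbp10 and Kitlg, with root mean square differences of centred log2 CPM of 0.0488, 0.0575 and 0.0626. For Dusp1 they were Bub1b (0.0683), Slc35c1 (0.0797) and Cant1 (0.101). Among the regulators the closest pair was Spry4 and Spred1 (0.161), a minimum over 45 pairs that cannot be set against minima over 10706 genes.

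The counts for the 6 pathway lists below stand beside all-gene shares of 30.4% higher and 29.0% lower for RBPMS, 30.1% and 30.1% for RBFOX2, and 32.9% and 34.0% for QKI knockdown, and several are near them. Upstream of the regulators, growth factor ligands held the largest differences. Of 10 tested ligands, 5 were higher and 4 lower after RBPMS knockdown, 4 and 5 after RBFOX2 knockdown, and 5 and 4 after QKI knockdown. Hgf, the ligand of the receptor Met, fell from a mean of 27.7 CPM in control to 4.63, 5.67 and 1.73 CPM after RBPMS, RBFOX2 and QKI knockdown (log2 fold changes -2.59, -2.29 and -4.01, adjusted p = 3.20e-13, 6.13e-13 and 1.38e-15). Ereg, which encodes epiregulin, a ligand of the EGF receptor family, rose from 6.10 to 30.6, 22.0 and 32.1 CPM (2.32, 1.85 and 2.39, adjusted p = 1.11e-13, 1.09e-12 and 1.69e-14). The ligand list thus held members that changed more than any of the 10 regulators, in both directions.

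Of the 10 receptor tyrosine kinases, 1 was higher and 4 lower after RBPMS knockdown, 4 and 4 after RBFOX2 knockdown, and 2 and 8 after QKI knockdown. Fgfr1, an FGF receptor, was at 26.7, 26.8 and 30.5 CPM in control and at 9.82, 9.01 and 9.53 CPM in QKI-KD (log2 fold change -1.56, adjusted p = 2.65e-13). Fgfr2 rose from a mean of 4.39 to 8.80 CPM in the same group (1.01, adjusted p = 6.11e-09) and fell to 2.68 CPM after RBPMS knockdown (-0.71, adjusted p = 2.26e-06). After RBPMS knockdown Erbb2 was also lower (-0.53), and after RBFOX2 knockdown Insr was lower (-0.48) and Pdgfra higher (0.41). Erbb2 and Insr were in fact lower in all 3 knockdowns. Erbb2 was at 47.7 CPM in control and at 33.1, 43.3 and 32.0 CPM after RBPMS, RBFOX2 and QKI knockdown. In the same order Insr was at 20.7, 20.5 and 17.8 CPM, from 28.6 CPM in control. Pdgfra was lower in QKI-KD (3.44 CPM, from 5.26 in control). The summed level of the 10 receptors was 504 to 573 CPM in control and 333 to 338 CPM in QKI-KD.

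Of the 20 genes of the Ras and ERK cascade, 6 were higher and 9 lower after RBPMS knockdown, 5 and 10 after RBFOX2 knockdown, and 7 and 8 after QKI knockdown, beside 30.4%, 30.1% and 32.9% of all genes higher. Mapk3, which encodes ERK1, was higher after RBPMS (log2 fold change 0.97) and after RBFOX2 knockdown (1.00), from 77.9 CPM in control to 153 and 156 CPM. Nras, a Ras protein, fell after RBFOX2 knockdown from 199 to 94.98 CPM (-1.07, adjusted p = 2.73e-14). Ksr1, an ERK scaffold, was higher after RBPMS knockdown (0.75). In QKI-KD the exchange factor gene Sos2 was lower (-1.13) and the FGF receptor adaptor gene Frs2 higher (0.88). Mapk3, Nras, Ksr1, Sos2 and Frs2 each passed in the same direction in all 3 knockdowns. Mapk3 was at 130 CPM in QKI-KD, and Nras at 171 CPM in RBPMS-KD and 153 CPM in QKI-KD. Ksr1 rose from 16.4 CPM to 27.6, 22.9 and 23.6 CPM after RBPMS, RBFOX2 and QKI knockdown. In the same order Frs2 rose from 59.8 to 94.2, 102 and 110 CPM, and Sos2 fell from 47.7 to 34.4, 30.0 and 21.8 CPM.

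For other inhibitors of the pathway, the same shares of all genes apply. Of 5 further MAPK phosphatases tested (Dusp9 was not), 1 was higher and 2 lower after RBPMS knockdown, 1 and 3 after RBFOX2 knockdown, and 2 and 3 after QKI knockdown. Dusp8, a phosphatase of stress kinases, was lower throughout, at 77.3 CPM in control and 49.0, 45.6 and 26.2 CPM after RBPMS, RBFOX2 and QKI knockdown (-0.66, -0.76 and -1.56). Dusp16 was lower after RBPMS knockdown (-0.49), and Dusp10 was higher after RBFOX2 (0.49) and lower after QKI knockdown (-0.41). Dusp16 was also lower after RBFOX2 knockdown and higher after QKI knockdown (41.8 and 59.9 CPM, from 55.1 in control). Dusp10 was also higher after RBPMS knockdown (46.0 CPM, from 33.3 in control). Of 9 other inhibitors at the receptor and Ras level, 1 was higher and 4 lower after RBPMS and after RBFOX2 knockdown, and 2 and 4 after QKI knockdown. Lrig1, a negative regulator of EGF family receptors, was lower after RBPMS (-0.68) and RBFOX2 knockdown (-0.55), and Errfi1, an inhibitor of the EGF receptor, was higher (0.41 and 0.29). Both moved the same way after QKI knockdown, Lrig1 from 22.0 CPM in control to 11.6 CPM and Errfi1 from 25.5 to 37.1 CPM. In QKI-KD the Ras GTPase-activating gene Rasa1 fell from 324 to 121 CPM (-1.42, adjusted p = 6.67e-15), and Spred3, the Spred gene outside the 10, rose from 15.4 to 16.5 CPM in the control libraries to 39.1 to 40.6 CPM (1.32, adjusted p = 3.97e-13). Spred3 therefore went up in the group in which Spred1 and Spred2 were lower. Rasa1 was also lower after RBPMS and RBFOX2 knockdown, at 245 and 266 CPM.

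Among 12 other genes that respond to ERK, 6 were higher and 4 lower after RBPMS knockdown, 5 and 5 after RBFOX2 knockdown, and 2 and 7 after QKI knockdown. Ccnd1, which encodes cyclin D1, was at 1243, 1322 and 1221 CPM in control and at 268, 261 and 276 CPM in QKI-KD (log2 fold change -2.23, adjusted p = 6.71e-18). Etv1, an ETS factor of the same PEA3 group as Etv5, fell in QKI-KD from 25.9 to 9.32 CPM (-1.47, adjusted p = 3.90e-14). Ccnd1 was higher after RBPMS and RBFOX2 knockdown, at 1480 and 1557 CPM, and Etv1 was lower after both, at 14.4 and 17.9 CPM. After RBPMS knockdown Ier3, an immediate early gene, and Myc were higher (1.41 and 1.29), while the immediate early gene Egr1 fell from 46.0 to 22.2 CPM. After RBFOX2 knockdown the immediate early genes Egr1 and Fos were lower (-1.04 and -1.03), while Fosl1 and Myc were higher (0.53 and 0.78) and Ier3 and Junb did not pass (-0.11 and 0.10). In QKI-KD Ier3 was higher (114 CPM, from 60.3 in control), and Egr1 and Fos were lower (32.6 and 4.77 CPM, from 46.0 and 9.82). The summed level of the 12 genes was 1991 to 2123 CPM in control and 1007 to 1045 CPM in QKI-KD, most of the difference being Ccnd1.

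**Figure D4:**
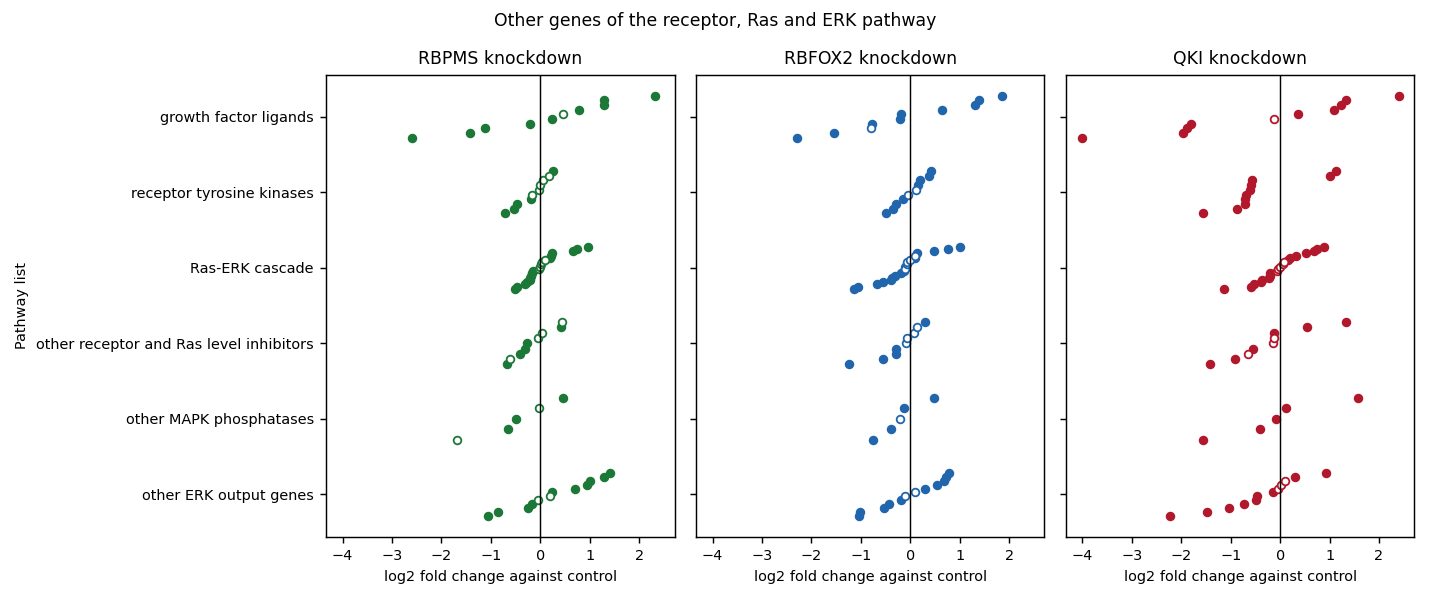
Log2 fold change against control (horizontal axis) of single genes (points) in 6 pathway lists outside the 10 regulators, 1 panel per knockdown; open points did not pass an adjusted p of 0.05. Points lie on both sides of 0 in every list and panel, with Hgf at -4.01 in QKI-KD the furthest from 0.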

How the data were processed

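Counts per gene for 33294 gene symbols were deposited by the authors as a raw table, and a second table holds a normalised signal for 22320 symbols. The study describes alignment to mRatBN7.2 with STAR, counting with featureCounts on RefSeq genes, noise removal with noisyR and quantile normalisation. The submitters' processing notes name FastQC 0.11.2, MultiQC 1.8, STAR 2.5.2a, edgeR 3.28.1 and DESeq2 1.30.0. The deposited normalised signal matches quantile means of counts plus 5. The library totals differ, although the study describes subsampling to equal depth. Handling of shared reads and of strand in counting is not stated, so close paralogues are uncertain. Each library held between 111 and 152 M counts, which sets the precision of a gene's value, with the doubt that low counts were mostly even and may exceed the number of independent fragments.

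Groups came from the sample titles. The deposited counts went into edgeR 4.0.16 under R 4.3.3 (filterByExpr, TMM scaling, glmQLFit and glmQLFTest, two-sided) in 1 fit over all 12 libraries with 1 coefficient per group, with Benjamini-Hochberg adjustment over 18438 genes. A gene passed at an adjusted p under 0.05. The SE is the absolute log2 fold change divided by the square root of F, and levels are CPM on TMM-scaled totals. The code was tested on simulated data. All 10 regulators were described. From each pathway list and knockdown, up to 2 genes with the largest absolute change were named, among those past the threshold, with a mean of at least 5 CPM and no overlap with control. The members, lists and tests were chosen with earlier results of these data known. Alternatives were RLE factors, library totals only, no filter, a mean of at least 200 counts, DESeq2 1.42.0, the normalised signal as log2(value + 1) with limma 3.58.1, the 6 libraries compared, a replicate block and leaving out each library. A fit on halved counts was added after seeing the data. Protein sequences and splicing were not analysed here.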

Additional observations from a re-analysis of the deposited data

How the results depend on the processing

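The number of regulators that passed moved by no more than 1.5 times under any alternative. With 1 library left out it was 6 to 9 for RBPMS, 6 to 8 for RBFOX2 and 8 to 9 for QKI against control, 6 to 7 for RBPMS against RBFOX2, 8 to 9 for RBPMS against QKI and 9 for RBFOX2 against QKI. The lowest values against control (6 and 6) came without the third control library. Both reversals concern differences that did not pass. Etv5 after RBPMS knockdown was -0.033 with library totals, -0.0056 with no filter, -0.038 in the normalised signal, and between -0.029 (without RBPMS-KD replicate 3) and 0.061 (without RBPMS-KD replicate 2) with 1 library left out, being below 0 also without control replicate 1 (-0.019) and RBPMS-KD replicate 1 (-0.0019). Spry1 in RBPMS against RBFOX2 knockdown was 0.018 without RBFOX2-KD replicate 2 and 0.034 in the normalised signal. The cause was not tested. Calls above an absolute log2 difference of 0.4 were kept under all alternatives, except those of Spry1. Scaling by library totals shifted the median of all genes to -0.11 and -0.12 in RBPMS against RBFOX2 and against QKI knockdown, and turned the split of regulators in the former from 2 higher and 6 lower into 1 and 7. Library totals brought Dusp1, Spry2 and Spred1 after QKI knockdown to -0.13, -0.17 and -0.10, and the normalised signal brought Dusp4 there to -0.26, all still past the threshold. Under a replicate block, Spry1 in QKI-KD (adjusted p = 0.0671) and Spred2 in RBPMS against RBFOX2 knockdown (0.0553) no longer passed, and no other call changed. No pairing by the labels' replicate numbers was seen: of 18 same-number pairs 4 had a correlation of deviations over 0.1 (range -0.34 to 0.25), and 3 of 12 libraries correlated best with their own number. Pairs with different numbers ranged from -0.32 to 0.41. With 3 libraries per group, this check cannot decide whether equal numbers shared a preparation. Halved counts changed no call. Spry1 had no value with the filter at 200 counts. Spry1 had fewer counts than the other regulators (60 to 143 per library), and why its calls were lost was not tested.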
